A study of Mus musculus with 2 samples.

Results

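Genes of antigen presentation and of the immunoproteasome were examined in parietal cells, which secrete the stomach's acid, isolated by sorting from C57BL/6 mice. One group of mice was fed a high fat diet (HFD) and the other was a control group. Each diet was represented by 1 library of total RNA depleted of ribosomal RNA, so no difference could be tested and every difference below is between these 2 libraries. The composition of the diets, the number, age and sex of the mice behind each library and the sorting markers are not stated in the labels. The members are all genes whose mouse symbol begins with H2-, together with 16 named genes of peptide production, peptide loading, regulation and class I-like presentation, 60 of the 38087 identifiers in the tables. They comprise 32 class I heavy chain genes and pseudogenes, the light chain gene B2m, the class I regulator Nlrc5, 2 class I-like genes, 13 genes of class II, 5 of peptide loading and trimming, 5 of the immunoproteasome and its activator, and H2-Ke6, a gene of the same region that encodes a hydroxysteroid dehydrogenase and presents no antigen.

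Major histocompatibility complex (MHC) molecules display peptides on the cell surface to T cells. Class I molecules pair a heavy chain with the light chain B2m on nearly all nucleated cells. Their peptides are cut in the cytosol by the proteasome, carried into the endoplasmic reticulum by the transporter Tap1-Tap2, and trimmed and loaded there with the help of Erap1 and tapasin. Interferons replace the catalytic proteasome subunits with inducible ones, giving the immunoproteasome. Class II molecules are alpha-beta pairs that load peptides of endocytosed proteins with the help of the invariant chain Cd74. They are made mainly by dendritic cells, macrophages and B cells, and by epithelial cells exposed to interferon gamma.

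Values are reads per kilobase of gene per M reads (RPKM), a level per length. Genes at or below a floor of 1 RPKM are listed at 0, which does not mean that no read was found. The spacing of the values gave depths of 25.5 M reads (HFD) and 9.84 M reads (control). At these depths the floor corresponds to 65.7 and 25.4 reads for a gene of the length of H2-D1. Intervals beside ratios are approximate 95% intervals from estimated reads. Counting error is all they cover, since PCR copies were not marked by molecular identifiers and need not be independent. The parietal identity was checked first: the proton pump genes Atp4a and Atp4b stood at 4997 and 5639 RPKM with HFD, against 4324 and 4375 RPKM in the control. Of the 7 genes on the parietal list, 5 were higher with HFD and 2, Gif and Kcne2, were lower. Of values below, the first of each pair is from the HFD library. Markers of other cells were abundant too, among them the chief cell gene Pgc at 45624 and 102292 RPKM, so a difference cannot be assigned to parietal cells.

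Of the 60 members, 34 were listed in at least 1 library and 26 were at 0 in both. Class II genes were higher in the HFD library in 6 of the 7 measured cases, with H2-Aa 6.69 times as high, whereas 12 of the 14 measured class I heavy chain genes were lower there, with H2-K1 2.12 times lower. Over the 16037 genes measured in all, 7052 were higher and 8985 lower, and 992 were listed in the HFD library only against 2606 in the control library only. Of the 14 heavy chain genes 6 were of the last kind, and the libraries differ in depth. Of the measured members 23 were listed in both libraries, 4 in the HFD library only and 7 in the control library only. On the log2(RPKM + 1) scale 7 of the 34 were over 2-fold higher with HFD and 8 over 2-fold lower, and a gene listed in 1 library passes 2-fold on this scale by construction. The background over all 16037 measured genes was 12.5% over 2-fold higher and 23.9% over 2-fold lower. Among members listed in both libraries 3 of 23 were over 2-fold higher, all of class II, and 2 were over 2-fold lower, H2-K1 and Tap2. The background over the 12439 genes listed in both was 10.6% higher and 13.1% lower. Restricted to protein-coding genes, 700 of 9997 such genes passed 2-fold upwards and 1245 downwards. Among the 11976 measured protein-coding genes, on the log2(RPKM + 1) scale, these numbers were 961 and 2404. The share of members passing upwards lay above each background, though it rests on few genes. Their share passing downwards lay below some backgrounds and above another. The median log2(RPKM + 1) ratio was -0.15 over the 34 members and -0.13 over all measured genes.

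**Figure D1:**
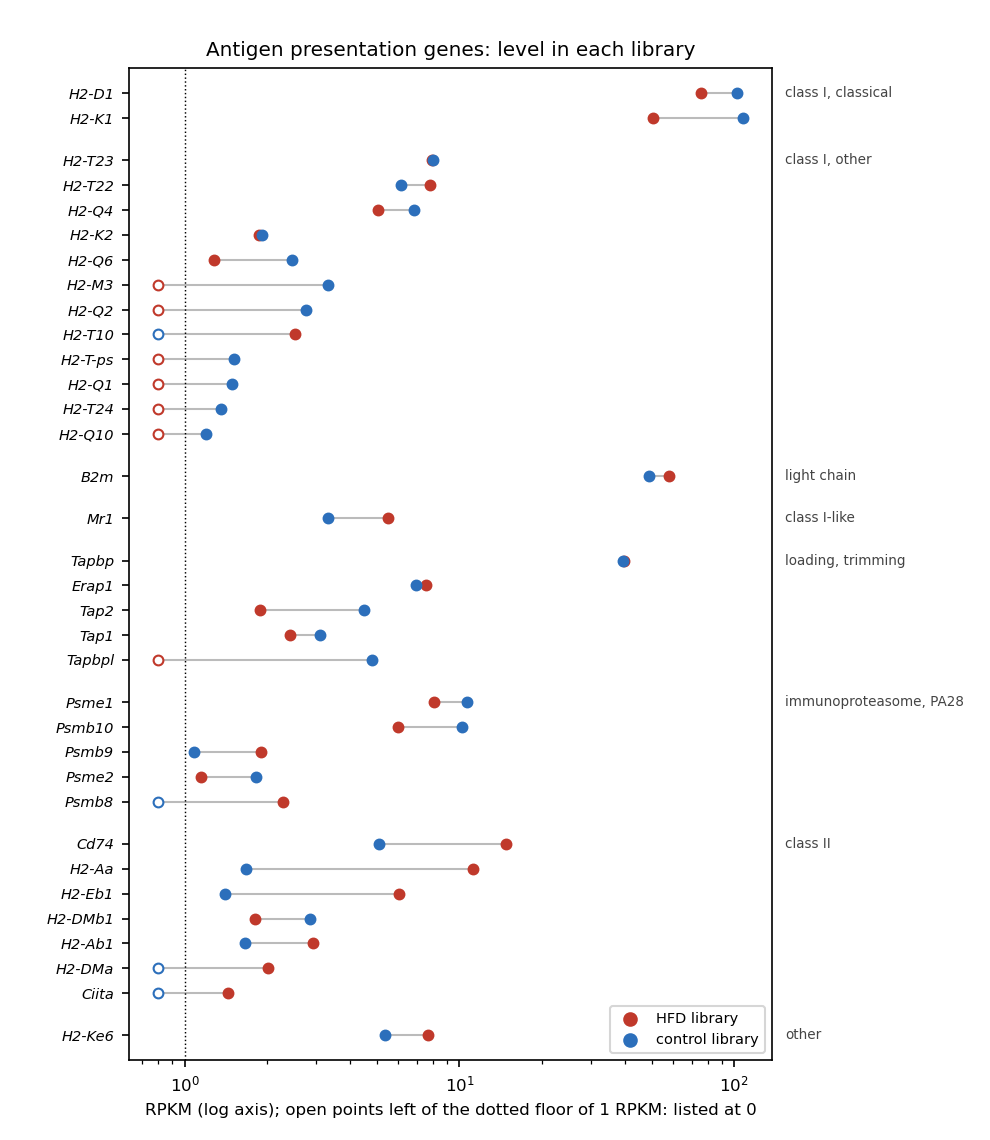
Level of the 34 measured members in the HFD library (red) and the control library (blue), in RPKM on a log axis, by role; open points stand for genes listed at 0. Class II genes lie further right in the HFD library except H2-DMb1, and H2-K1 and H2-D1 lie further right in the control library.

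The upstream sequences of the classical class I heavy chains, of their light chain B2m, and of the 2 class II chain genes with the highest ratios are shown with the classical elements known from these promoters. They run 5′ to 3′ on the gene's strand and end at the base before the RefSeq start (GRCm38.p6, the build also called mm10). The windows are chr17:34000348-34000597 on the minus strand for H2-K1, chr17:35262844-35263093 on the plus strand for H2-D1, chr2:122147437-122147686 on the plus strand for B2m, chr17:34287824-34288073 on the minus strand for H2-Aa and chr17:34305617-34305866 on the plus strand for H2-Eb1. Capitals mark matches, on either strand, to an interferon regulatory factor element (AANNGAAA), an NF-kB element (GGGATTCCC), the CCAAT box (CCAAT), the core of the class II X1 box (CAACNGATG) and the cyclic AMP response element (TGACGTCA).
H2-K1: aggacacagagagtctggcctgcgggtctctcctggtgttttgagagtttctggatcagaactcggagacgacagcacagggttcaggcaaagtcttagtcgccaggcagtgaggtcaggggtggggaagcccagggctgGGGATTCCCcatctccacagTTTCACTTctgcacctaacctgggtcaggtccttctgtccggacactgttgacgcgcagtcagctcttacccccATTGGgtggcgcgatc
H2-D1: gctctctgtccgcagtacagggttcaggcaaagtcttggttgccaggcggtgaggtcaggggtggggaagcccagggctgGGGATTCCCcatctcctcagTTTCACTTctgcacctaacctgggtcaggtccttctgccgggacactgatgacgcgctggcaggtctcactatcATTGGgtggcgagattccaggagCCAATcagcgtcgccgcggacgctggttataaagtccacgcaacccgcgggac
B2m: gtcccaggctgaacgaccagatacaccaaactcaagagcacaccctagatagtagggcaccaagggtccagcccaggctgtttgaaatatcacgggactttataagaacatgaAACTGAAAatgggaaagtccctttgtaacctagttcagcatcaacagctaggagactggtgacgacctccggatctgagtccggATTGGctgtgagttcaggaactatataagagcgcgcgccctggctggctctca
H2-Aa: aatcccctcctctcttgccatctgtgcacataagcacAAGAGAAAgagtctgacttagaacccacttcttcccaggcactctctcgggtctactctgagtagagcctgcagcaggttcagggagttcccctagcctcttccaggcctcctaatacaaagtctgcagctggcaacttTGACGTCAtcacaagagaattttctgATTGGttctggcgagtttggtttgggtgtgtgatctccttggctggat
H2-Eb1: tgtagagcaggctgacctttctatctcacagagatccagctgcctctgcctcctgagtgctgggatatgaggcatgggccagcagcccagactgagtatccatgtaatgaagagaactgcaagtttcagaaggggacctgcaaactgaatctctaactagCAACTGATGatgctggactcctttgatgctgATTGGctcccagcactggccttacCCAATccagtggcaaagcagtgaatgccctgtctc
Over 32851 RefSeq windows of 250 bases, 21.3% held the interferon regulatory factor element, 0.301% the NF-kB element, 33.8% the CCAAT box, 0.46% the X1 core and 1.55% the cyclic AMP response element. H2-K1 and H2-D1 each held the NF-kB element and, its first base 20 bases further downstream, the interferon regulatory factor element, and the 2 windows were identical at 167 of 191 aligned positions (87.4%). Of the class II windows, H2-Eb1 held the X1 core and H2-Aa the cyclic AMP response element, and both held a CCAAT box. The cyclic AMP response element reads the same on both strands, so its site in H2-Aa matches on each strand at the same bases, and no other matches overlapped. A match describes the letters only, and binding was not measured. RefSeq windows matched 42 of the 60 members and 25 of the 34 measured ones.

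The classical class I heavy chain genes were among the 3 most abundant members in each library, with B2m, and both were lower in the HFD library. H2-K1 (ENSMUSG00000061232, chromosome 17, 33996017 to 34000347, minus strand) stood at 50.7 RPKM with HFD against 108 RPKM in the control, 2.12 times lower (interval 2.02 to 2.22). H2-D1 (ENSMUSG00000073411, chromosome 17, 35262730 to 35267499, plus strand) stood at 75.6 and 102 RPKM, 1.35 times lower (1.28 to 1.41). In the control library the levels of the 2 genes were close, whereas in the HFD library H2-D1 lay above H2-K1. Both ranked high among listed protein-coding genes, with H2-K1 at percentiles 94.5 (HFD) and 98.2 (control). B2m (ENSMUSG00000060802, chromosome 2, 122147686 to 122153083, plus strand), the light chain shared by all class I molecules, stood at 57.9 and 48.9 RPKM, a ratio of 1.18 (1.06 to 1.32). Per length the 2 heavy chains together were 2.18 times the light chain with HFD and 4.28 times in the control. These quotients within a library do not depend on how the libraries are scaled, whereas the ratio of B2m falls below 1 when the HFD library is rescaled by its total less the 20 most abundant genes.

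The other class I heavy chain genes, most of which encode molecules of lower abundance and narrower peptide or ligand range, were far below the classical pair. H2-K1 and H2-D1 held 82.7% (HFD) and 85.0% (control) of the summed class I heavy chain RPKM. H2-T23, which encodes Qa-1, a ligand of inhibitory receptors on natural killer cells, stood at 7.96 and 8.02 RPKM, a ratio of 0.992 with an interval from 0.849 to 1.16. H2-T22, whose product is bound by gamma delta T cells, stood at 7.84 and 6.15 RPKM (ratio 1.27, interval 1.09 to 1.49), a direction that turns under the same rescaling. Its close relative H2-T10 was listed at 2.52 RPKM with HFD and at 0 in the control library. These 2 genes cannot be separated well, since 31.2% of the 50-base windows of H2-T22 transcripts also occur in H2-T10. Counting any other gene, 53.5% of the windows of H2-T22 and 50.4% of those of H2-T10 are shared, so summing them leaves some sharing. Their summed estimated reads were 1.68 times as high in the HFD library per M reads (1.44 to 1.96), with H2-T10 entered as 0 in the control.

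Genes of the Q block were lower in the HFD library. H2-Q4 stood at 5.05 and 6.83 RPKM, 1.35 times lower (1.12 to 1.63), and H2-Q6, one of the genes for Qa-2, at 1.28 and 2.46 RPKM, 1.92 times lower (1.30 to 2.79). H2-Q1, H2-Q2 and H2-Q10, the last encoding a secreted class I molecule of the liver, were listed at 0 with HFD and at 1.49, 2.77 and 1.19 RPKM in the control library. Summed over the 8 Q genes, estimated reads per M were 2.43 times lower in the HFD library (2.11 to 2.80). Genes listed at 0 enter this sum as 0, so reads under the floor are missing from it, more often in the HFD library. H2-Q3, H2-Q5 and H2-Q7 were at 0 in both libraries. Copies share sequence here as well: 36.4% of the windows of H2-Q4 and 35.0% of those of H2-Q6 occur in another gene, against 9.63% for H2-K1 and 12.8% for H2-D1.

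Of the remaining heavy chain genes, H2-M3, which presents formylated peptides of bacteria, was listed at 0 with HFD and at 3.31 RPKM in the control library. H2-T24 and the pseudogene H2-T-ps were likewise listed in the control library only, at 1.36 and 1.52 RPKM, both close to the floor. The pseudogene H2-K2 stood at 1.86 and 1.91 RPKM, a ratio of 0.973 whose interval (0.641 to 1.52) spans 1. No member of the H2-M10 group, known from the vomeronasal organ, was listed in either library, nor were H2-M1, H2-M2, H2-M5, H2-M6-ps, H2-M9, H2-M11, H2-T3 and H2-Bl. Over the 14 measured heavy chain genes the median log2(RPKM + 1) ratio was -0.84, against -0.13 over all measured genes. Over the 7 listed in both libraries the median log2 RPKM ratio was -0.43, with 6 lower, against -0.02 over all genes listed in both. Summed over all 32, estimated reads per M were 1.60 times lower with HFD (1.55 to 1.65), with the same limit.

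Outside the H2 region, Mr1, which presents vitamin metabolites of microbes to mucosal T cells, stood at 5.50 and 3.34 RPKM (ratio 1.65, interval 1.41 to 1.94). Cd1d1, which presents lipids, and Nlrc5, the transactivator of class I genes, were at 0 in both libraries. The floor for the long Nlrc5 gene corresponds to many reads, so a level under 1 RPKM would not show. Of 10 further class I-like genes fixed as a list, 7 were measured, 4 higher and 3 lower in the HFD library. Azgp1, a secreted class I-like lipid-binding protein, stood at 19.5 and 9.16 RPKM (ratio 2.13, 1.78 to 2.56). Raet1e, a stress ligand for natural killer cells, stood at 4.60 and 1.14 RPKM (ratio 4.03, 2.67 to 6.47), and Hfe, a regulator of iron uptake, at 4.50 and 2.66 RPKM (ratio 1.69). The control value of Raet1e is close to the floor, on an estimated 24.2 reads. Its annotated span also holds H60b and Raet1d on the same strand. Fcgrt, the neonatal Fc receptor, was listed at 0 with HFD and at 3.91 RPKM in the control library. The 3 genes of this list that were listed in both libraries were all higher with HFD, as was Mr1. All 3 lower ones were listed in the control library only.

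**Figure D2:**
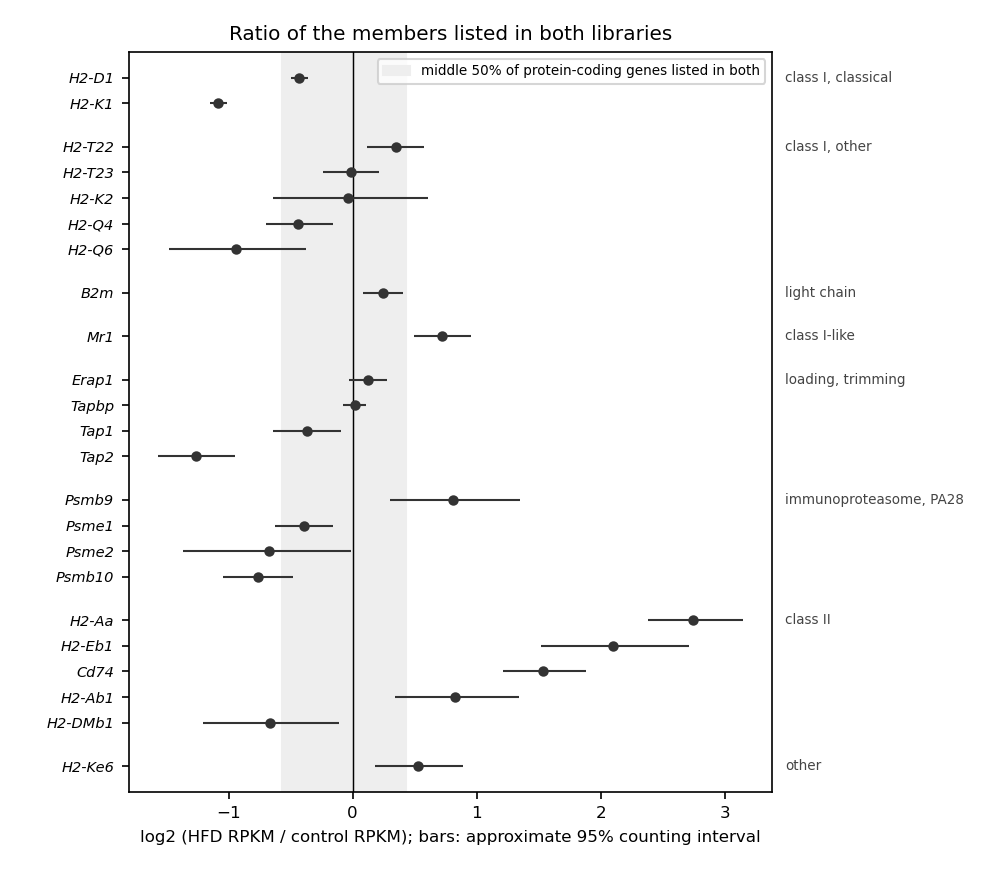
Log2 ratio of RPKM, HFD over control, of the 23 members listed in both libraries, by role, with approximate 95% counting intervals; the grey band holds the middle 50% of protein-coding genes listed in both (-0.57 to 0.43). H2-Aa, H2-Eb1, Cd74, H2-Ab1 and Mr1 lie right of the band, as do Psmb9 and H2-Ke6, and H2-K1, H2-Q6, Tap2, Psmb10, Psme2 and H2-DMb1 lie left of it.

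The class II chain genes H2-Aa, H2-Eb1 and H2-Ab1 were higher in the HFD library, from low levels in the control library. H2-Aa (ENSMUSG00000036594, chromosome 17, 34282744 to 34287823, minus strand), the I-A alpha chain, stood at 11.2 RPKM with HFD against 1.67 RPKM, a ratio of 6.69 (5.22 to 8.86). H2-Eb1, the I-E beta chain, stood at 6.01 and 1.40 RPKM (ratio 4.30, 2.87 to 6.57), and H2-Ab1, the I-A beta chain, at 2.94 and 1.66 RPKM (ratio 1.77, 1.26 to 2.54). All 3 control values lie just above the floor, on an estimated 62.5, 26.7 and 41.9 reads. The alpha and beta chains of I-A pair in equal numbers. Per length over all exons, however, H2-Aa stood well above H2-Ab1 with HFD and level with it in the control library. The level of H2-Aa against H2-Ab1 within a library depends on the length used: the longest transcript was 0.472 of the exon bases for H2-Ab1 and 0.849 for H2-Aa. The ratio of each gene between the libraries does not depend on it, and the intervals of these ratios do not overlap. H2-Ea-ps, the I-E alpha gene, is defective in C57BL/6 mice and was at 0 in both libraries, so the H2-Eb1 transcript had no listed partner.

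Cd74, the invariant chain that blocks the peptide groove until loading, was the most abundant class II gene in both libraries, at 14.8 and 5.11 RPKM (ratio 2.89, 2.31 to 3.70). Ciita, the master activator of class II transcription, was listed at 1.43 RPKM with HFD and at 0 in the control library. Its HFD value is close to the floor, on an estimated 348 reads where the floor corresponds to 243. H2-DMa, the alpha chain of the peptide exchange factor H2-DM, was listed at 2.01 RPKM with HFD and at 0 in the control library. H2-DMb1, its beta chain, went the other way at 1.80 and 2.86 RPKM, 1.59 times lower (1.08 to 2.30). H2-DMb1 shares 22.7% of its windows with H2-DMb2, which was at 0 in both. H2-Oa and H2-Ob, the chains of the inhibitor of H2-DM, and H2-Eb2 and the pseudogene H2-Pb were at 0 in both libraries. Over the 7 measured class II genes the median log2(RPKM + 1) ratio was 1.37, and 6 were higher. Under the rescaling that leaves out the 20 most abundant genes it was 0.96, still with 6 higher, while that of all measured genes went from -0.13 to -0.63. Ciita and H2-DMa, listed in the HFD library only, count as higher under any scaling, so the count of 6 could not show their direction.

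Genes of class II processing and turnover gave ratios on both sides of 1. Of the 11 on this list, 8 were measured, 5 higher and 3 lower with HFD, and the median log2(RPKM + 1) ratio was 0.17 against -0.13 over all genes. The lysosomal protease genes Ctsd and Ctsb stood at 269 and 215 RPKM and at 129 and 112 RPKM, ratios of 1.25 and 1.15. Ifi30, the thiol reductase that opens disulfide bonds of antigens, stood at 131 and 115 RPKM (ratio 1.14). Sppl2a, the protease that removes the last Cd74 fragment, had the highest ratio, 1.81 (1.66 to 1.99), and Ctsh the lowest, at 3.78 and 11.9 RPKM (ratio 0.317). Ctss, the protease that degrades Cd74 in antigen-presenting cells, was at 0 in both libraries, as were March1 and Cd83, which control class II turnover at the surface of dendritic cells.

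Markers of leukocytes, among them the cells that usually carry class II, were few. Of 40 markers in 6 leukocyte lists, 29 were at 0 in both libraries, among them Ptprc, Itgax, Adgre1, Itgam and all 5 B cell markers. Those listed numbered 9 in the HFD library, with a summed level of 42.8 RPKM, and 6 in the control library, with 7.86 RPKM. Within the macrophage and monocyte list of 10 genes, 6 were listed with HFD and 4 in the control library, with sums of 21.5 and 5.53 RPKM. C1qb, a complement gene of tissue macrophages, stood at 8.91 and 1.01 RPKM, Cd68 at 4.26 and 1.42 RPKM, and Csf1r, the receptor for the macrophage growth factor, at 2.03 RPKM against 0. Igha, the immunoglobulin A constant region, stood at 15.7 and 1.28 RPKM. It was the single listed gene of the plasma cell list, whose other members Jchain, Mzb1 and Tnfrsf17 were at 0 in both libraries. Batf3 was the single dendritic cell marker of 8 that was listed, at 1.05 RPKM in the control library. Of the 7 measured macrophage and monocyte markers 5 were higher in the HFD library, as the class II genes were, and Ly6c2 and Lyz2 were lower. Their part in the class II difference was not tested. In RNA from a sorted population, fewer cells of a type and less RNA per cell cannot be told apart.

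Endothelial cells are known for high class I levels, and their markers were lower in the HFD library. Of 7 markers, 5 were measured and all 5 were lower, with sums of 27.2 and 54.8 RPKM, and Emcn and Vwf were at 0 in both. Plvap stood at 22.6 and 37.6 RPKM and Pecam1 at 1.50 and 7.08 RPKM. Other lists were lower too by their summed levels: fibroblast (42.5 and 116 RPKM, 5 of 5 genes lower), smooth muscle (20.9 and 159 RPKM, 4 of 4), enteroendocrine (1208 and 8266 RPKM, 3 of 4), chief (45644 and 102371 RPKM, 2 of 2) and neck cells (7494 and 8500 RPKM, 2 of 2). Pit cell markers were higher, at 33326 and 11840 RPKM, with 3 of 4 higher. The parietal list was higher by its sum as well, at 11143 and 9268 RPKM, with 5 of 7 higher. The part of these cells in the lower class I heavy chains was not tested.

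**Figure D3:**
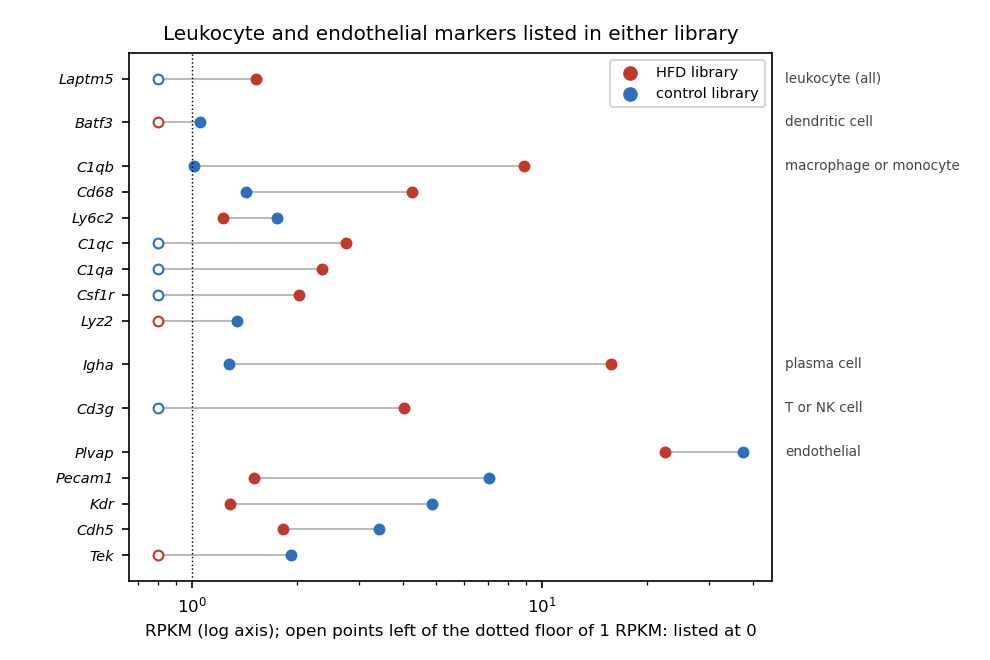
Level in each library, in RPKM on a log axis, of the leukocyte and endothelial markers listed in either library (HFD red, control blue); open points are genes listed at 0. Macrophage markers C1qa, C1qb, C1qc, Cd68 and Csf1r lie further right in the HFD library, and the 5 endothelial markers in the control library.

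Genes of peptide transport and loading differed in level. Tapbp, which encodes tapasin, the bridge between the transporter and class I, was the most abundant at 39.8 and 39.4 RPKM, a ratio of 1.01 (0.950 to 1.08). Of the windows of Tapbp 23.2% occur in another gene, most of them in Gm19412. Erap1, the aminopeptidase that trims peptides, stood at 7.58 and 6.96 RPKM, a ratio of 1.09 whose interval (0.983 to 1.21) spans 1. Both chains of the peptide transporter were both lower in the HFD library, Tap1 at 2.41 and 3.12 RPKM (1.29 times lower, 1.07 to 1.56) and Tap2 at 1.87 and 4.50 RPKM (2.40 times lower, 1.93 to 2.97). Tapbpl, a tapasin relative that edits peptides, was listed at 0 with HFD and at 4.81 RPKM in the control library, an estimated 111 reads. Of these 5 genes 2 were higher and 3 lower, and the median log2(RPKM + 1) ratio was -0.27. It turned to 0.06 at a minimum of 5 RPKM, which only Tapbp and Erap1 reached. Under the rescaling that leaves out the 20 most abundant genes, 0 were higher and 5 lower with a median of -0.67, and Tapbp and Erap1 were then lower. Chaperones of the endoplasmic reticulum that fold class I, a list of 7, were lower in 7 of 7 cases with a median of -0.30, against -0.13 over all measured genes. None of the 7 differed by over 2-fold, and only Calr and Prkcsh lay outside the middle 50% of protein-coding genes (log2 ratio -0.57 to 0.43). Calr, which holds the heavy chain in the loading complex, stood at 243 and 373 RPKM (ratio 0.650), Hspa5 at 108 and 143 RPKM (0.760) and Pdia3, the disulfide isomerase bound to tapasin, at 116 and 131 RPKM (0.883). The lowest ratio was that of Prkcsh (0.529) and the highest that of Uggt1 (0.896), both of glycoprotein quality control.

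The inducible proteasome subunits stood below their constitutive counterparts in both libraries. Psmb9 (beta1i) stood at 1.90 and 1.08 RPKM, a ratio of 1.75 (1.23 to 2.54), and reached 13% of the level of its counterpart Psmb6 with HFD and 7.46% in the control library. Psmb10 (beta2i) stood at 6.00 and 10.2 RPKM, 1.70 times lower in the HFD library (1.39 to 2.07), and reached 20.2% and 23.3% of Psmb7. Psmb8 (beta5i) stood at 2.29 RPKM in the HFD library, 2.78% of Psmb5, and was listed at 0 in the control library. These percentages are per length and depend on the exon lengths used. For Psmb8 and Psmb5 these were 3381 and 899 bases, and the estimated HFD reads were 197 and 1883. The 3 inducible subunits, which are built into the same particle, did not share a direction. Psme1 and Psme2, the alpha and beta subunits of the interferon-inducible activator, were both lower, at 8.09 and 10.6 RPKM (1.31 times lower, 1.12 to 1.54) and at 1.14 and 1.83 RPKM (1.60 times lower, 1.01 to 2.58). Psme2 shares 28.3% of its windows with Psme2b. With the longest transcript as length its interval spans 1. Over the 5 genes 2 were higher and 3 lower with a median log2(RPKM + 1) ratio of -0.35, which turned to 0.06 over those with under 20% of their windows shared.

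**Figure D4:**
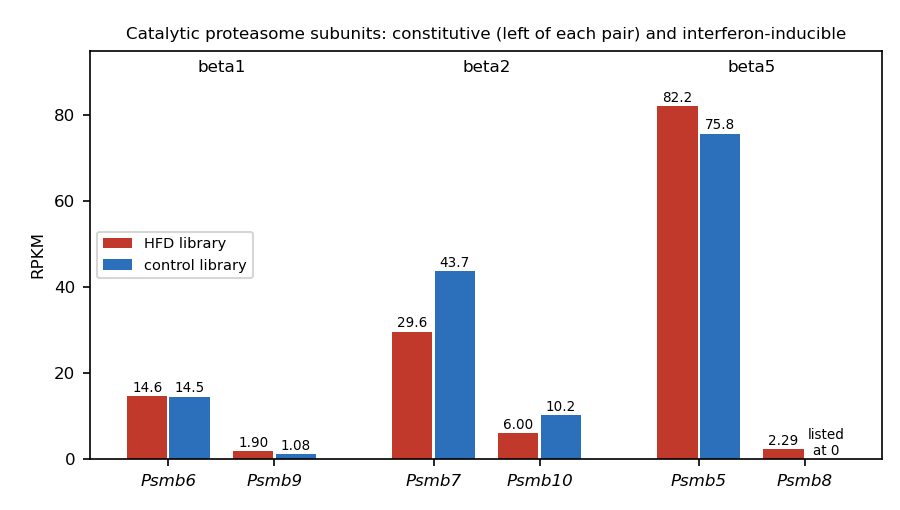
RPKM of the catalytic proteasome subunits as bars from 0, constitutive at the left of each pair and inducible at the right, in the HFD library (red) and the control library (blue). Each inducible subunit is lower than its partner in both libraries, and Psmb8 is listed at 0 in the control library.

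The constitutive proteasome genes, a list of 17 with the assembly factor and the other activators, showed 8 higher and 9 lower with HFD, and the median log2(RPKM + 1) ratio was -0.05. The most abundant were Psmb5 at 82.2 and 75.8 RPKM (ratio 1.08, 0.992 to 1.19), Psmb1 at 64.4 and 66.7 RPKM (0.965) and Psmb4 at 56.1 and 58.3 RPKM (0.963). The extremes were the alpha ring genes Psma5 at 10.7 and 2.46 RPKM (ratio 4.35) and Psma6 at 7.01 and 33.2 RPKM (ratio 0.211).

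Psmb9, Tap1, Psmb8 and Tap2 lie side by side in 34.3 kb of chromosome 17, and neighbours differed in direction. Psmb9 on the minus strand (34181987 to 34187764) and Tap1 on the plus strand (34187553 to 34197225) start from 1 shared stretch. By RefSeq the stretch between the 2 starts is chr17:34187331-34187555 (GRCm38.p6), shown here on the plus strand, towards Tap1, with the same motifs in capitals.
Psmb9-Tap1: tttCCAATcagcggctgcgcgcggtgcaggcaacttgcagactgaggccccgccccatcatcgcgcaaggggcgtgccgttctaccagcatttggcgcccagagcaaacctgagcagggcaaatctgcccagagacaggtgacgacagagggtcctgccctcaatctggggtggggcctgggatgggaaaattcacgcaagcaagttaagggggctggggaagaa
It held a single match, a CCAAT box near the Psmb9 start. From this stretch Psmb9 had a ratio of 1.75 and Tap1 one of 0.774. The next gene, Psmb8, was listed in the HFD library only, and Tap2, which follows it, had a ratio of 0.416. The annotated gene bodies of Psmb9 and Tap1 overlap by 212 bases, and 4.19% of the windows of Psmb9 occur in Tap1 transcripts. How reads were assigned to genes is not stated, so reads of the overlap may be counted for either.

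Along the H2 region 49 members span 3568 kb of chromosome 17. H2-Ab1, H2-Aa and H2-Eb1 lie within 59.0 kb, and all 3 were higher in the HFD library. Between H2-D1 and H2-Q10, in 212 kb with 9 members, none was higher: 3 were lower, 3 were listed in the control library only and 3 were at 0 in both. In the T block, 185 kb with 7 members, H2-T22 was higher, H2-T10 was listed in the HFD library only, and H2-T24 and H2-T-ps in the control library only. Of the 14 members of the M block, H2-M3 alone was listed, in the control library. H2-Ke6, near H2-K1, stood at 7.69 and 5.35 RPKM (ratio 1.44, 1.14 to 1.85; lower under the rescaling above), and 70.5% of its windows occur in the overlapping gene Gm20427.

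**Figure D5:**
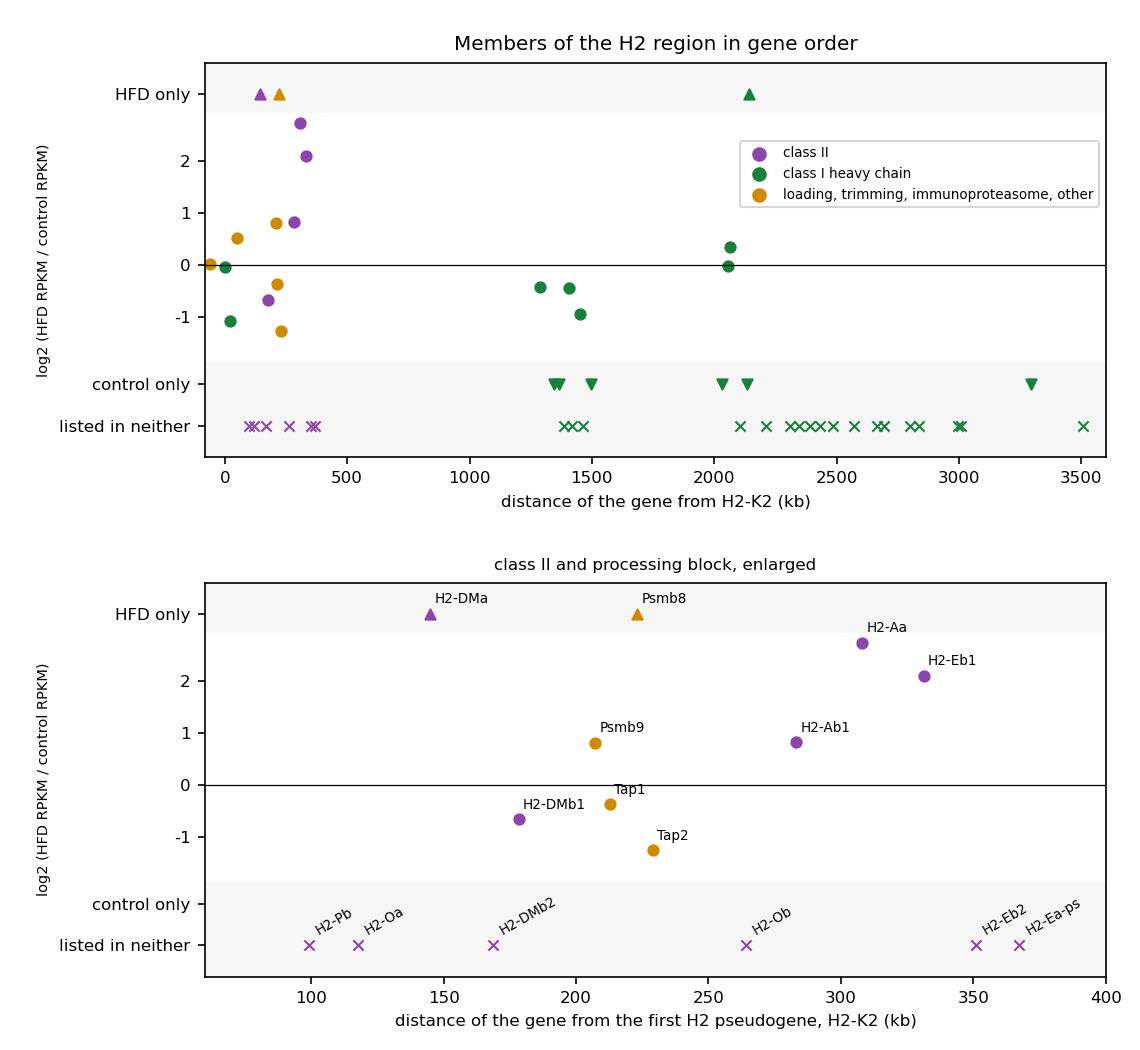
Log2 ratio of RPKM, HFD over control, of the members of the H2 region against distance from H2-K2 in kb, with genes listed in 1 or neither library in the shaded strips; the lower panel enlarges the class II and processing block. H2-Ab1, H2-Aa and H2-Eb1 lie above 0, Tap1, Tap2 and H2-DMb1 below it, and the H2-D1 to H2-Q10 genes below it or in the lower strips.

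Genes that control MHC transcription and interferon signalling, a list of 23, were measured in 22 cases, 12 higher and 10 lower with HFD, and the median log2(RPKM + 1) ratio was 0.12 against -0.13 over all genes. Irf9, the DNA-binding part of the type I interferon factor, had the highest ratio, at 6.91 and 2.51 RPKM (2.76, 2.29 to 3.33). Ifngr1, the ligand-binding chain of the interferon gamma receptor, had the lowest among genes with at least 50 estimated reads, at 15.2 and 26.6 RPKM (ratio 0.571, 0.520 to 0.627). Among the most abundant, Rela of NF-kB stood at 17.8 and 19.5 RPKM (0.913) and the kinase gene Jak1 at 17.7 and 13.2 RPKM (1.34). The list thus held ratios on both sides of 1, and Socs1, a feedback inhibitor, was at 0 in both libraries.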

How the data were processed

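RNA of sorted parietal cells was measured in 1 library per diet. The deposited column is headed RPKM per the file headers, but its values were read as log2 RPKM made by the authors, from the values alone: read so, the largest are 304350 and 285593 RPKM, the smallest listed lie just above 1, and low values cluster on multiples of a fixed step. bedtools 2.25.0 and mm10 are named in the submitters' processing notes, and the sources used here do not give the aligner, counting rule or annotation. That step, from single-exon genes, gave depths of 25.5 and 9.84 M reads (HFD, control); of values up to 12 reads, 50% and 35.3% were whole within 0.005 reads, so depths are approximate. Symbols, positions and exon lengths came from GENCODE M21 (36308 identifiers matched, 1779 not). Estimated reads are RPKM times exon length times depth, with conditional binomial 95% intervals. Ratios use RPKM where both libraries are listed, otherwise log2(RPKM + 1). Shared windows are 50-base stretches of GENCODE transcripts found on either strand in another gene's transcripts.

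Members and gene lists were chosen with earlier results of these data known, so no list is independent support. Every listed member is named. Of each other list the text names the 3 most abundant genes and those whose ratio was most extreme (at least 50 estimated reads), and also genes at 0 or markers chosen after their values were seen. The calculations (Python 3.11.15, scipy 1.17.1) were tested on simulated data. No count model was run, since the files hold no counts.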

Additional observations from a re-analysis of the deposited data

How the results depend on the processing

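With 1 library per diet no replicate could be left out. Scaling the HFD library by its total less the 20 most abundant genes shifts it by -0.61 on the log2 scale. All genes then split into 1102 over 2-fold higher and 5645 lower, against 2000 and 3833. The class I heavy chain median (-0.84) became -1.08 and that of loading and trimming (-0.27) became -0.67. By their log2 RPKM ratios H2-Ab1 fell from 0.83 to 0.22, Psmb9 from 0.81 to 0.20 and Mr1 from 0.72 to 0.11. Their intervals, shifted alike, span a ratio of 1. H2-Aa, H2-Eb1 and Cd74 stayed higher, at 2.14, 1.50 and 0.93. B2m (-0.36), H2-T22 (-0.26) and H2-Ke6 (-0.082) then turned lower by their log2 RPKM ratios, as did Erap1 (from 0.12 to -0.48) and Tapbp (from 0.016 to -0.59), whose reported intervals span a ratio of 1. Centring on protein-coding genes reversed none of these. It turned H2-T23, whose interval spans 1, from -0.012 to 0.027, and 3 instead of 2 class I heavy chain genes were then higher. Medians depended on how a 0 is entered. At the floor of 1 RPKM class I was -0.32 and class II 0.59 (reported 1.37), with a pseudocount of 0.1 RPKM class II was 2.03, and with no minimum, so that genes at 0 in both count as equal, both were 0.00. Over genes listed in both libraries class I was -0.37. At a minimum of 5 RPKM class I was again -0.37, loading and trimming turned to 0.061, and 1092 and 1393 of all genes were over 2-fold higher and lower. Over protein-coding genes the class I median was -1.07, and 961 and 2404 of all genes passed 2-fold. With members sharing under 20% of their windows, added after seeing the data, class I was -1.13, loading and trimming -0.60, and the immunoproteasome median (-0.35) turned to 0.061. With the longest transcript as length, 18 instead of 19 of the 23 counting intervals excluded a ratio of 1.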
